A study of Mus musculus with 30 samples.

Results

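The genes described here are 9 genes of calcium and calmodulin signalling in the mouse hippocampus: the 4 subunit genes of calcium/calmodulin-dependent protein kinase II (Camk2a, Camk2b, Camk2d and Camk2g), the kinases Camk4 and Camk1d, their upstream activators Camkk1 and Camkk2, and Ppp3ca, a catalytic subunit of the phosphatase calcineurin. They were taken by name, through their Ensembl identifiers, as 9 of the 17477 genes in the deposited table of read counts. The hippocampus of 30 mice was sequenced: 8 socially isolated (SI) females, 7 group-housed (GH) females, 7 SI males and 8 GH males. All were C57BL/6J mice, and the study's methods name no transgene or mutant allele; SI mice were caged singly from weaning into adulthood and GH mice were caged in groups with others. The study asked which hippocampal genes differ in expression after isolation that begins at weaning. Each library is 1 mouse and is named by its animal number, but the labels do not say which mice shared a cage or litter. GH mice shared cages and SI mice did not, and the tests treated cage mates as independent. The p-values therefore measure the spread between these mice and not between cages, and can be too small. The tissue is bulk hippocampus, in which fewer cells of a type and less RNA per cell cannot be told apart.

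When calcium enters a neuron through NMDA receptors or voltage-gated channels it binds calmodulin, and calcium-bound calmodulin opens the autoinhibited kinases of this family. CaMKII is a ring of subunits that phosphorylate one another at a threonine beside the autoinhibitory segment, after which the kinase stays partly active when calcium falls; in hippocampal excitatory neurons it is among the most abundant postsynaptic proteins and is needed for long-term potentiation. CaMKK1 and CaMKK2 switch on CaMKI and CaMKIV, which carry calcium signals to growth and to transcription in the nucleus. Calcineurin is opened by the same calcium signal but removes phosphate groups, and it is best known in the hippocampus for its part in long-term depression.

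The CaMKII genes are close relatives, so it matters for the counts whether reads can be told apart between them. The stretch of coding sequence around the autophosphorylated threonine is shown for 3 of the 4 genes because it is among the most conserved parts of the kinase. Each stretch is 60 bases of the longest protein-coding transcript in GENCODE vM1 (build NCBIM37), read 5′ to 3′ along the transcript, and the capitals mark the threonine codon, which is codon 287 of Camk2b, 256 of the Camk2d model and 287 of Camk2g.
Camk2b: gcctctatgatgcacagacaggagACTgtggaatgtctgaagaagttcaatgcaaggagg
Camk2d: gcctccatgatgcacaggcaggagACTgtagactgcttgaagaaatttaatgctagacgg
Camk2g: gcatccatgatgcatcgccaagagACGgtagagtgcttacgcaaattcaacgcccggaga
Even here Camk2b and Camk2d differ at 11 of 60 bases, Camk2d and Camk2g at 18, and Camk2b and Camk2g at 20. Over whole transcripts, 50 of the 4940 stretches of 31 bases in the longest Camk2a transcript, or 1.01%, also occur in a protein-coding transcript of another gene, and 6 of these are in another of the 9 genes. For Camk4 the share was 168 of 12301, or 1.37%, for Camk1d 0.274%, for Camk2b 0.0501% and for Ppp3ca 0.0423%. Camk2d, Camk2g, Camkk1 and Camkk2 shared none. Reads of the 9 genes are therefore mostly separable by sequence from the protein-coding transcripts that this annotation lists. Noncoding transcripts and pseudogenes were not searched.

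In that build Camk2b (ENSMUSG00000057897) lies on the minus strand of chr11:5869647-5966365, Camk2d (ENSMUSG00000053819) on the plus strand of chr3:126299220-126547972 and Camk2g (ENSMUSG00000021820) on the minus strand of chr14:21554097-21613310. Camkk1 (ENSMUSG00000020785) is at chr11:72832510-72855575 and Camkk2 (ENSMUSG00000029471) at chr5:123183213-123229391. Camk1d (ENSMUSG00000039145) is at chr2:5214503-5635561 and Ppp3ca (ENSMUSG00000028161) at chr3:136333088-136600691. Camk2a is ENSMUSG00000024617 and Camk4 is ENSMUSG00000038128. The counts were made on a later build, GRCm39, so these positions place the genes and were not used for counting.

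Library totals ran from 18809307 to 100844898 counts. In every library each of the 9 genes was counted well above 0, from 214 counts of Camk4 in its lowest library to 458042 of Camk2a in its highest. The libraries of SI males 25, 33 and 39 stood apart from all others in their content of long transcripts: the mean log2 level of genes with transcripts over 4410 bases minus that of genes with transcripts under 1913 bases was -1.13 to -0.88 in these 3 and -0.31 to 0.42 in the other 27. Values without them are given beside the male results that they move most. None of the markers of 12 cell types or neighbouring regions was at 0 in any library, and summed excitatory neuron markers ran from 1306 to 2260 CPM. CPM are the counts of a gene scaled by the library total, after that total is adjusted by a normalization factor (TMM) for each library. Astrocyte markers had the most calls of these lists in females, where 3 of 5 were called lower in SI (edgeR, adjusted p under 0.05) and their summed CPM was 3326 to 4541 in SI and 3882 to 5447 in GH mice. In females 1 of 3 endothelial markers was called higher, with sums of 113 to 155 CPM in SI and 93.9 to 121 in GH, and no marker of the excitatory neuron, dentate granule, CA1, CA3, interneuron, oligodendrocyte, microglia, choroid plexus, thalamus or striatum lists was called by edgeR; DESeq2 called 4 astrocyte, 2 oligodendrocyte, 1 endothelial, 1 CA1 and 1 interneuron marker in females. In males no marker of any list was called by edgeR, which called none of all genes in that sex where DESeq2 called 44; all 3 thalamus markers had an unadjusted p under 0.05 and their sum was 26.3 to 105 CPM in SI and 23.4 to 41.8 in GH males.

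Per length of transcript, Camk2a had the highest mean of the 9 genes in every group, although Ppp3ca was above it in SI males 25 (904 against 499.6 CPM per kb) and 33 (786 against 647). In GH females it stood at 1188 ± 149 CPM per kb (SD, n = 7), followed by Ppp3ca at 308 ± 21.1 and Camk2b at 214 ± 16.5, and the lowest Ppp3ca mouse (285) was above the highest Camk2b mouse (234). Below these came Camkk2 at 49.1 ± 2.08, Camk2g at 46.9 ± 1.40 and Camkk1 at 43.9 ± 2.84 CPM per kb, whose mice overlapped, so their order was not larger than the spread. Camk1d stood at 21.4 ± 2.98, Camk2d at 9.72 ± 0.842 and Camk4, the nuclear kinase, at 1.79 ± 0.226, and each of these 3 was below every mouse of the gene before it. Among the CaMKII subunits the order was thus Camk2a, Camk2b, Camk2g and Camk2d. Without division by length Camk1d (149 CPM) moved above Camkk2 (137 CPM) in GH females. The Camk4 value rests on a transcript model of 12331 bases, of which 10566 are 3′ untranslated, and would be higher for a shorter transcript.

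**Figure D1:**
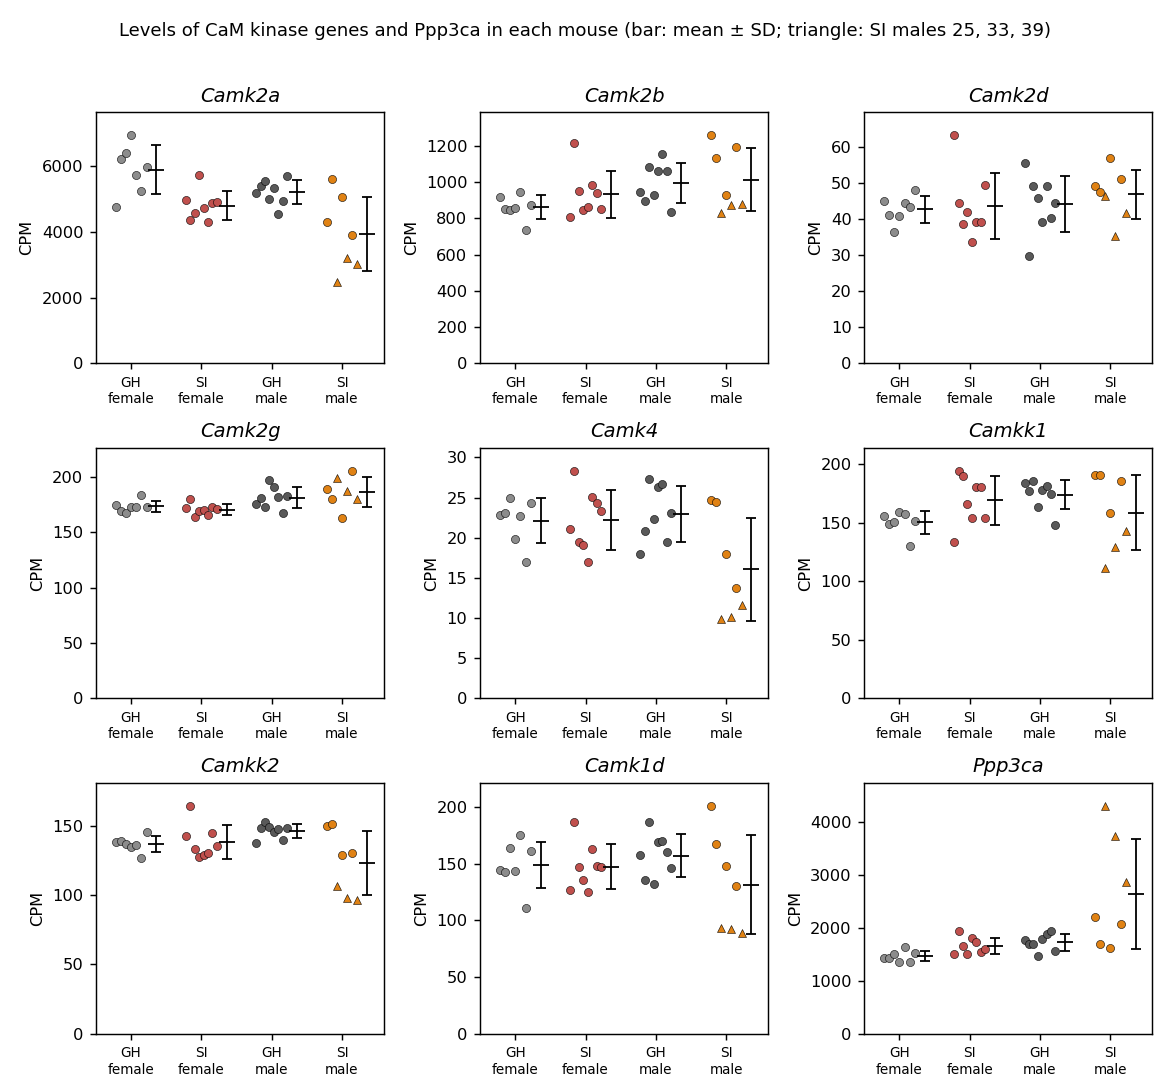
Scaled read counts (CPM, linear axes from 0) of the 9 genes in each of the 30 mice by group, with the mean ± SD beside each group and triangles for SI males 25, 33 and 39. Camk2a was lower on average in SI than GH mice of both sexes, and the 3 triangles are the lowest Camk2a, Camk4 and Camkk2 mice and the highest Ppp3ca mice of their group.

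SI and GH mice were compared within each sex with edgeR's quasi-likelihood test, in a model with surrogate variables, which are estimated factors that stand for unlabelled variation between libraries. In females Camk2a, the main forebrain subunit of CaMKII, fell, and it was 1 of the 9 genes called at an adjusted p under 0.05 where 3.89% of 16026 genes were called, 2.93% of all being lower in SI. Camkk1 and Ppp3ca were higher with an unadjusted p under 0.05 but were not called, so that 3 of 9 had such a p where 20.2% of all genes did. In males 0 of 9 were called by edgeR, where 0% of 15833 genes were, and 0 by DESeq2, and 4 of 9 (Camk2a, Camk4, Camk2b and Camkk2) had an unadjusted p under 0.05, where 13% of all genes did. The median log2 fold change of the 9 genes was 0.02 in females and 0.02 in males, beside 0.0077 and -0.0020 over all genes tested. In no member did the CPM of SI and GH mice of a sex separate without overlap, which 0.3% of genes did in females and 0.0568% in males.

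Camk2a in GH females ran from 4753 CPM in animal 46 through a median of 5979 to 6951 in animal 54, and in SI females from 4298 in animal 63 through 4806 to 5725 in animal 52. The groups overlapped, with 4 of 8 SI females below the lowest GH female and none above the highest. Their means were 5904 ± 738 and 4808 ± 448 CPM (SD, n = 7 and 8), and the fitted log2 fold change of SI against GH was -0.24 (SE 0.0523, edgeR adjusted p = 0.0197), so that the fitted level fell by 15.3%. The direction was the same with each mouse left out in turn (-0.34 to -0.19), but the call was kept in 8 of the 15 such fits: it was lost without SI females 45, 49, 63, 68 or 73 and without GH females 48 or 54, at adjusted p of 0.0629 to 0.089. It was also lost by edgeR without surrogate variables (-0.30, edgeR adjusted p = 0.101), but not by limma-voom with quality weights for each library, which had none either (-0.36, limma-voom adjusted p = 0.0069). The astrocyte marker sum was lower in the same SI females, while the median excitatory neuron sum was 1717 CPM in SI and 1681 in GH females. Median sums were also lower in SI females for CA1 (498 against 510 CPM) and oligodendrocyte markers (6903 against 8328). They were higher for dentate granule (239 against 196), CA3 (174 against 164) and interneuron markers (706 against 657), and the groups overlapped in each. The part of these sums in the Camk2a value was not tested.

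In males Camk2a ran from 4549 CPM in animal 22 through 5273 to 5712 in animal 24 in the GH group, and from 2483 in animal 25 through 3907 to 5610 in animal 8 in the SI group. Of the 7 SI males, 5 were below the lowest GH male, and the means were 5215 ± 375 (SD, n = 8) and 3944 ± 1135 (n = 7). The fitted difference was close to that in females, at -0.25 (SE 0.0946), but did not pass the test (edgeR adjusted p = 0.330). Without surrogate variables it was -0.40 in males (edgeR adjusted p = 0.1335) and -0.30 in females. SI males 25, 33 and 39 held 2483 to 3218 CPM and the other 4 SI males 3907 to 5610, and without those 3 libraries the fitted difference was -0.06 (edgeR adjusted p = 0.898). Without SI male 27 instead, it was -0.38 and passed (edgeR adjusted p = 0.0104), in a fit that called 3 of the 9 genes and 15.3% of all genes. The summed astrocyte markers were also lower in SI males, at 2224 to 4387 CPM against 3691 to 5032 in GH males, with overlap. The median excitatory neuron sum (1654 against 1952 CPM) and CA1 sum (465 against 552) were lower in SI males as well. Median CA3, dentate granule and interneuron sums were higher. All these sums include SI males 25, 33 and 39 and were not computed without them. The part of these sums in the Camk2a value was not tested.

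**Figure D2:**
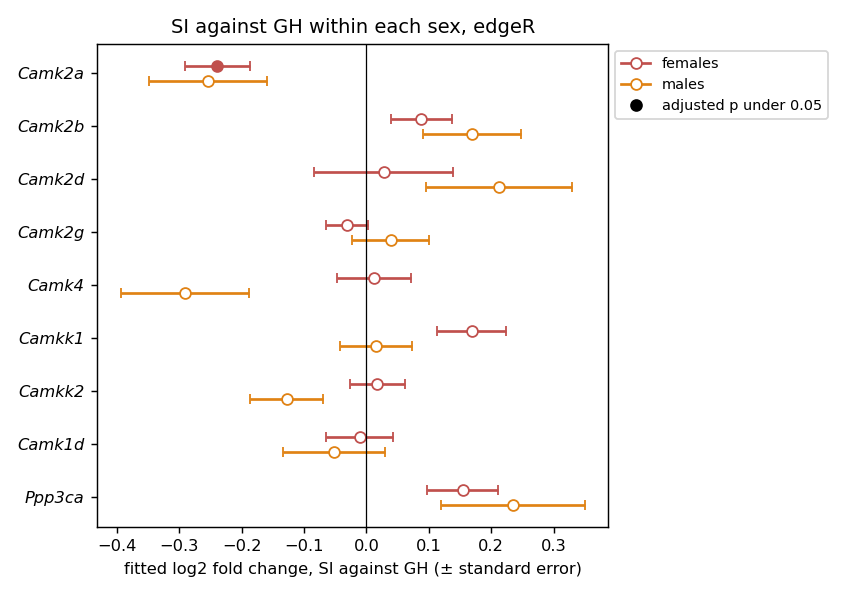
Fitted log2 fold change of SI against GH mice (x axis) with its standard error for each of the 9 genes, females in red and males in orange; a filled point has an adjusted p under 0.05. Camk2a in females (-0.24) is the filled point, and the male values of Camk2a (-0.25) and Camk4 (-0.29) are as far from 0 with wider errors.

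Camk2b, the second forebrain subunit, which also binds actin in spines, did not follow Camk2a. In females it ran from 735 to 943 CPM in GH and from 806 to 1216 in SI mice, with 3 of 8 SI females above the highest GH female, a fitted log2 fold change of 0.09 (SE 0.0491) and an edgeR adjusted p of 0.336. In males the group means were alike, 995 ± 111 CPM in GH and 1014 ± 176 in SI, and the fitted difference was 0.17 (SE 0.0787, edgeR adjusted p = 0.377). SI males 25, 33 and 39 were the 3 lowest of their group, at 832 to 878 CPM, and without them the fitted difference was 0.021 (edgeR adjusted p = 0.976).

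Because both subunits enter the same holoenzyme, the ratio of Camk2b to Camk2a counts within each library was compared as well. It needs no library size, but it shares the Camk2a counts with the fit. The counts are of RNA in bulk tissue, and the protein of the subunits was not measured. The log2 ratio in GH females ran from -3.02 through a median of -2.84 to -2.37, and in SI females from -2.76 through -2.42 to -1.84. The ratio was higher in SI females by 0.399 on the log2 scale, with means of -2.37 ± 0.292 and -2.77 ± 0.220 (SD, n = 8 and 7; two-sided exact permutation test over 6435 splits, p = 0.0107, adjusted over both sexes 0.0107). In GH males it ran from -2.78 through -2.40 to -1.98 and in SI males from -2.45 through -1.78 to -1.58. The difference in males was 0.468, with means of -1.93 ± 0.325 in SI and -2.39 ± 0.240 in GH (n = 7 and 8; exact permutation p = 0.0087, adjusted 0.0107). Both pairs of groups overlapped. Per kb of transcript, Camk2b stood at 0.243 of the Camk2a level in SI females against 0.183 in GH females, and at 0.332 in SI males against 0.238 in GH males.

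Both ratio differences passed with any 1 mouse left out, at 0.323 to 0.466 in females and 0.410 to 0.556 in males (exact permutation p up to 0.0256 and 0.0200). The ratio test held no surrogate variables, without which edgeR called Camk2a in neither sex (edgeR adjusted p of 0.101 in females and 0.1335 in males). It was run on no other pair of genes, so how many pairs would pass is not known. Without SI males 25, 33 and 39 together the difference in males was 0.333 and did not pass (exact permutation p = 0.0869 over 495 splits). GH males 22 and 24 had the highest and lowest ratio of their group and SI males 25 and 27 of theirs. Whether the difference in males is larger than in females was not tested.

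**Figure D3:**
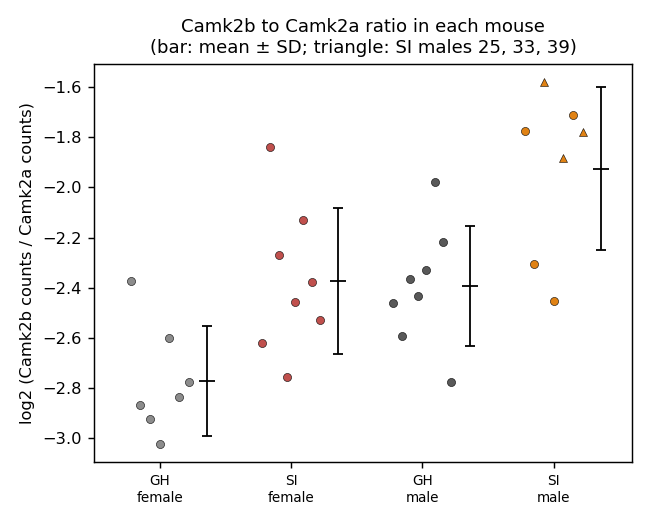
Log2 of Camk2b counts over Camk2a counts (y axis) in each mouse by group, with the mean ± SD beside each group and triangles for SI males 25, 33 and 39. The SI means of -2.37 (females) and -1.93 (males) lie above the GH means of -2.77 and -2.39, and the groups overlap.

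The minor subunits Camk2d and Camk2g, which are expressed in many tissues, were not called in either sex. Camk2d ran from 29.8 to 63.2 CPM over all mice, with a fitted log2 fold change of 0.03 (SE 0.112) in females and 0.21 (SE 0.117, edgeR adjusted p = 0.437) in males. Camk2g varied little, at 174 ± 5.18 CPM in GH and 171 ± 4.85 in SI females (SD, n = 7 and 8), and at 181 ± 9.53 in GH and 187 ± 13.97 in SI males. Its fitted differences were -0.03 (SE 0.0341) and 0.04 (SE 0.0613). As a description, the mean log2 ratio of Camk2g to Camk2a was -5.08 in GH and -4.81 in SI females and -4.84 in GH and -4.35 in SI males, and that of Camk2d to Camk2a was -7.11 and -6.80 in females and -6.90 and -6.36 in males. Each of these ratios, like that of Camk2b, has Camk2a as its divisor and is no further evidence on Camk2a.

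Camkk1 and Camkk2 phosphorylate CaMKI and CaMKIV, and Camkk2 also phosphorylates AMP-activated protein kinase. Camkk1 in GH females ran from 130 through 152 to 159 CPM and in SI females from 133 through 173 to 194, with 5 of 8 SI females above the highest GH female. Its fitted log2 fold change was 0.17 (SE 0.0553), with an unadjusted p of 0.0073 and an edgeR adjusted p of 0.0946, so it was not called; DESeq2 called it (0.17, adjusted p 0.0397), as did edgeR without SI female 41 (0.20, adjusted p 0.0235) or with the length and GC trend of each library removed (0.16, adjusted p 0.0463). In males the fitted value was 0.02 (SE 0.0575), while the means were 174 ± 12.5 in GH and 158 ± 32.0 in SI (SD, n = 8 and 7), so the sign of the fit and of the means differed. SI males 25, 33 and 39 were again the lowest of their group, at 112 to 143 CPM, and the other SI males ran from 158 to 191.

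Camkk2 was level in females, at 137 ± 5.77 CPM in GH and 138 ± 12.1 in SI mice. In males 5 of 7 SI mice lay below the lowest GH male, with 146 ± 5.11 in GH and 123 ± 23.3 in SI, and a fitted difference of -0.13 (SE 0.0580, edgeR adjusted p = 0.375). Of these SI males, animals 25, 33 and 39 held 96.2 to 107 CPM and the other 4 held 129 to 152. Without the 3 the fitted difference was -0.08 (edgeR adjusted p = 0.868).

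Camk4, which phosphorylates the transcription factor CREB in the nucleus, differed little between female groups. It ran from 17.0 to 25 CPM in GH and from 17.0 to 28.4 in SI females, with a fitted log2 fold change of 0.01 (SE 0.0593). In males it ran from 17.97 through 22.7 to 27.3 CPM in the GH and from 9.85 through 13.8 to 24.7 in the SI group, with 4 of 7 SI males below the lowest GH male. The fitted difference of -0.29 (SE 0.103) had an unadjusted p of 0.0113 but did not pass (edgeR adjusted p = 0.319). SI males 25, 33 and 39 held 9.85 to 11.6 CPM, and without them the fitted difference was -0.16 (edgeR adjusted p = 0.834). With transcript length and GC content removed as a trend in each library it was -0.10 (edgeR adjusted p = 0.652), and without SI male 27 it was -0.36 and passed (edgeR adjusted p = 0.0483).

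Camk1d, a CaMKI kinase of neurons with a long 3′ untranslated region, went with Camk4 across mice. Its means were 149 ± 20.7 CPM in GH and 148 ± 20.2 in SI females and 157 ± 18.6 in GH males. SI males averaged 132 ± 43.4 (n = 7), with 88.7 to 93.0 in animals 25, 33 and 39 and 131 to 201 in the other 4. The fitted differences were -0.01 (SE 0.0534) in females and -0.05 (SE 0.0815) in males.

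Ppp3ca, the calcineurin catalytic subunit that predominates in the brain, was higher on average in SI mice of both sexes and was called in neither. In GH females it ran from 1358 through 1438 to 1641 CPM and in SI females from 1498 through 1634 to 1933, with 4 of 8 SI females above the highest GH female. The fitted log2 fold change was 0.15 (SE 0.0570), with an unadjusted p of 0.0151 and an edgeR adjusted p of 0.136; with the length and GC trend removed it was called (0.17, edgeR adjusted p = 0.0372). In males the GH group ran from 1459 through 1738 to 1942 and the SI group from 1612 through 2195 to 4301, with 5 of 7 SI males above the highest GH male. The SI mean of 2641 ± 1039 (n = 7) rested largely on animals 25, 33 and 39, which held 2867 to 4301 CPM where the other 4 held 1612 to 2195. The fitted difference in males was 0.23 (SE 0.116, edgeR adjusted p = 0.393), 0.62 without surrogate variables and 0.02 without the 3 libraries. Without SI male 27 it was 0.38 and passed (edgeR adjusted p = 0.0226).

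**Figure D4:**
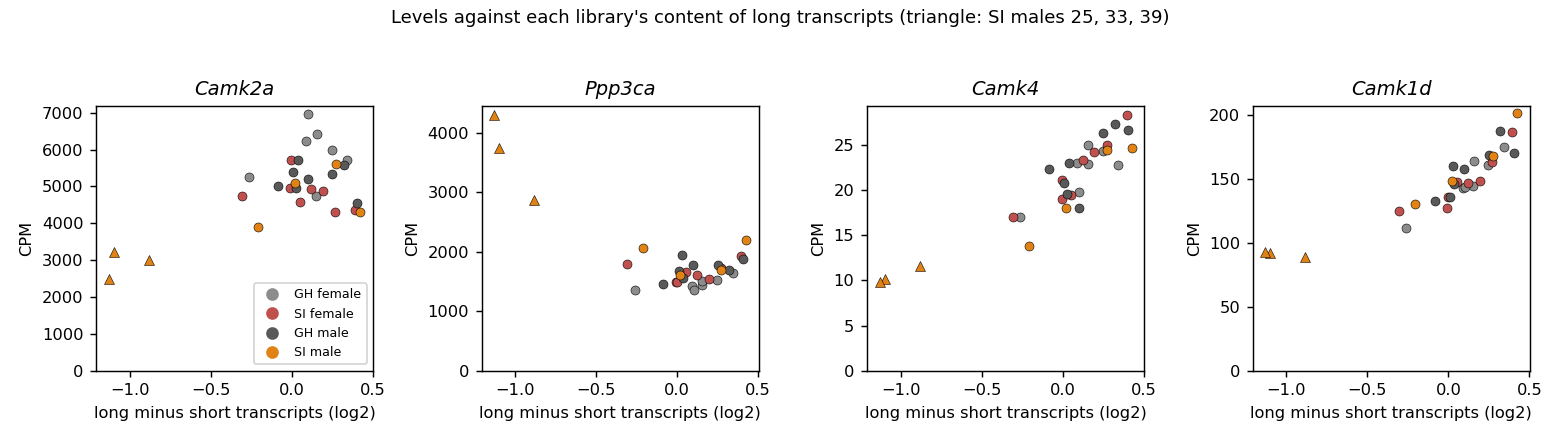
CPM of Camk2a, Ppp3ca, Camk4 and Camk1d (y axes, linear from 0) against the mean log2 level of long minus short transcripts (x axis) in each library, by group. SI males 25, 33 and 39 (triangles) lie alone at -1.13 to -0.88, below the other 27 libraries in Camk2a, Camk4 and Camk1d and above them in Ppp3ca.

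The 2 sexes were compared in 1 fit of all 30 mice with a term for sex by housing. None of the 9 genes was called (0 of 9, where 0.0061% of 16391 genes were), and DESeq2 called none of them either. Camkk2 (male minus female difference of -0.15 on the log2 scale, SE 0.0616) and Camk4 (-0.20, SE 0.0963) had an unadjusted p under 0.05, where 7.03% of all genes did, and their edgeR adjusted p were 0.648 and 0.705. The Camk2a term was 0.06 (SE 0.116, edgeR adjusted p = 0.945), an error too wide to tell a small difference between the sexes from none.

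Within the groups the genes varied together in part. After the group mean of log2 CPM was subtracted, Camk2a and Ppp3ca ran opposite to each other over the 30 mice (Pearson r = -0.82), and less so without SI males 25, 33 and 39 (r = -0.529, 27 mice). Camk4 and Camk1d went together with and without those mice (r = 0.885 and 0.784), as did Camk2b and Camkk1 (0.843 and 0.804). Camk2a and Camk2b were weakly related over all mice (0.186) and ran opposite over the 27 (-0.438). Other pairs also depended on those libraries. With Ppp3ca, Camk2b went from -0.176 over all mice to 0.747 over the 27, Camkk1 from -0.487 to 0.525 and Camk1d from -0.439 to 0.55. Camk2a and Camk4 went from 0.577 to 0.0993. These values describe the libraries, which share their depth and content of long transcripts, and carry no test.

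Of 15770 genes tested in both sexes, those most like Camk2a over the 30 mice by the same measure were Gng7, a G protein gamma subunit (r = 0.966), Ppp2r2c, a regulatory subunit of protein phosphatase 2A (0.954), Traf3 (0.948), the ubiquitin ligase Ube3b (0.946) and Snph, which anchors axonal mitochondria (0.946). Gng7 and Ube3b stayed among the first 5 without SI males 25, 33 and 39. The genes most like Camk4 were the kinase Tnik (0.966), the tyrosine kinase Abl2 (0.96), the neuregulin receptor Erbb4 (0.957), Dmxl2 (0.955) and the neuregulin Nrg3 (0.955), of which Tnik, Abl2 and Dmxl2 stayed among the first 5 without those mice. No other of the 9 genes was among either 5.

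A further 78 genes of the pathway, in 9 lists, were examined to see whether the partners and targets of these enzymes moved with them. All 78 were tested in both sexes. The lists, like the 9 genes, were chosen with earlier results of these data known. Their shares of called genes therefore describe the lists and are not an independent test. In females 7 were called, 1 higher and 6 lower, or 8.97% of the list where 3.89% of all genes were called, and the median log2 fold change was -0.0011, beside 0.0077 over all genes. DESeq2 called 8 of the 78 in females, or 10.3%, where it called 7.87% of all genes. At an unadjusted p under 0.05, 9 were higher and 11 lower in females, where 20.2% of all genes had such a p. In males 0 of 78 were called by edgeR and 1, Itpr1, by DESeq2; 4 were higher and 11 lower at an unadjusted p under 0.05, where 13% of all genes had such a p, and the median was -0.03, beside -0.0020 over all genes. The calls in females, like that of Camk2a, were not stable: each of the 7 was kept in 5 to 8 of the 15 fits that left out 1 mouse, and all were lost by edgeR without surrogate variables, while limma-voom without them kept 6 of the 7, all but Ryr3. In males the calls changed without SI male 27, the mouse with the lowest Ppp3ca of its group: 11 of the 78 were called, or 14.1%, where that fit called 15.3% of all genes, and Shank3, Crtc1, Itpr1, Adcy1, Pcp4 and Rcan3 were among them (edgeR adjusted p 0.0045 to 0.0261). Without SI males 25, 33 and 39 none was called, and the fitted values of these 6 were -0.15, -0.095, -0.19, -0.18, 0.20 and 0.0042. Itpr1 was also called without SI male 38 (-0.59, edgeR adjusted p = 0.0495).

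At the synapse, where CaMKII binds NMDA receptors and phosphorylates AMPA receptor subunits and scaffold proteins, 2 of 13 partner and substrate genes fell in females, where 2.93% of all genes were called lower. Dlg4, which encodes the scaffold PSD-95, ran from 999 to 1294 CPM in GH and from 893 to 1049 in SI females (log2 fold change -0.18, SE 0.0417, edgeR adjusted p = 0.0242). Shank3, a deeper scaffold of the postsynaptic density, ran from 490 to 698 and from 395 to 555 CPM (-0.27, SE 0.0686, edgeR adjusted p = 0.0380). The other 11, among them the NMDA receptor genes Grin1, Grin2a and Grin2b, were not called. In males Shank3 had the smallest p of the list (-0.41, SE 0.139, edgeR adjusted p = 0.312) and its SI group ran from 102 to 592 CPM. Without SI males 25, 33 and 39 its fitted value was -0.15 (edgeR adjusted p = 0.630).

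Among 11 genes of calcium entry, stores and pumps, Itpr1 fell and Ryr3 rose in SI females, beside 3.89% of all genes called; both encode release channels of the endoplasmic reticulum. Itpr1, the inositol trisphosphate receptor, ran from 380 to 538 CPM in GH and from 354 to 441 in SI females (-0.19, SE 0.0445, edgeR adjusted p = 0.0266). Ryr3, a ryanodine receptor, ran from 24.96 to 37.4 and from 24.95 to 51.6 CPM (0.34, SE 0.0864, edgeR adjusted p = 0.0372). In males Itpr1 was at 416 ± 49.5 CPM in GH and 248 ± 134 in SI mice (SD, n = 8 and 7), with a fitted value of -0.45 (SE 0.104) that edgeR did not call (adjusted p = 0.295) and that was -0.19 without SI males 25, 33 and 39 (edgeR adjusted p = 0.752).

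Of 14 nuclear targets, which include CREB, its coactivators and the class II histone deacetylases that these kinases move out of the nucleus, Crtc1 and Hdac5 fell in females, beside 2.93% of all genes. Crtc1, a CREB coactivator that calcineurin dephosphorylates, ran from 318 to 423 CPM in GH and from 284 to 355 in SI females (-0.19, SE 0.0491, edgeR adjusted p = 0.0407). Hdac5 ran from 252 to 326 and from 212 to 299 CPM (-0.22, SE 0.0478, edgeR adjusted p = 0.0202). In males Crtc1 was at -0.22 (SE 0.0715, edgeR adjusted p = 0.312), and at -0.095 without SI males 25, 33 and 39. Of 8 other calcineurin subunits and regulators, 1, the calcineurin inhibitor Rcan3, fell in females (-0.21, SE 0.0550, edgeR adjusted p = 0.0418), from 38.2 ± 2.60 CPM in GH to 32.4 ± 3.51 in SI; in males it was at -0.14 (SE 0.0925).

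No gene was called in either sex by edgeR in the other 5 lists. Among 7 other CaM kinases and inhibitors, the CaMKII inhibitor Camk2n2 had the smallest p in females (-0.16, edgeR adjusted p = 0.154) and the related inhibitor Camk2n1 in males (-0.11, edgeR adjusted p = 0.672), where its group means ran the other way, 1743 ± 388 CPM in GH and 2226 ± 881 in SI. Among 6 calmodulin genes and buffers these were Nrgn in females (0.10, edgeR adjusted p = 0.190) and Pcp4 in males (0.29, edgeR adjusted p = 0.3001). Among 7 genes of AMP-activated protein kinase and Akt they were Akt1 (-0.15, edgeR adjusted p = 0.0899) and Prkaa2 (-0.11, edgeR adjusted p = 0.572); Akt1 was called by DESeq2 (-0.15, adjusted p 0.0352), by limma-voom, and by edgeR with no filter, with the length and GC trend removed, or without GH female 71 or 78 or SI female 52. Nrgn was called with that trend removed or without SI female 41 and Prkcb, in the next list, without GH female 46. Among 5 protein kinase C and adenylyl cyclase genes they were Prkcb (-0.13, edgeR adjusted p = 0.129) and Adcy1 (-0.46, edgeR adjusted p = 0.295), the latter at -0.18 without SI males 25, 33 and 39. Of 7 activity-induced genes they were Egr1 in females (0.23, edgeR adjusted p = 0.139) and Nr4a1 in males (-0.56, edgeR adjusted p = 0.3001); in males 6 of the 7 were on the lower side in SI and 4 of these had an unadjusted p under 0.05, which 13% of all genes had.

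**Figure D5:**
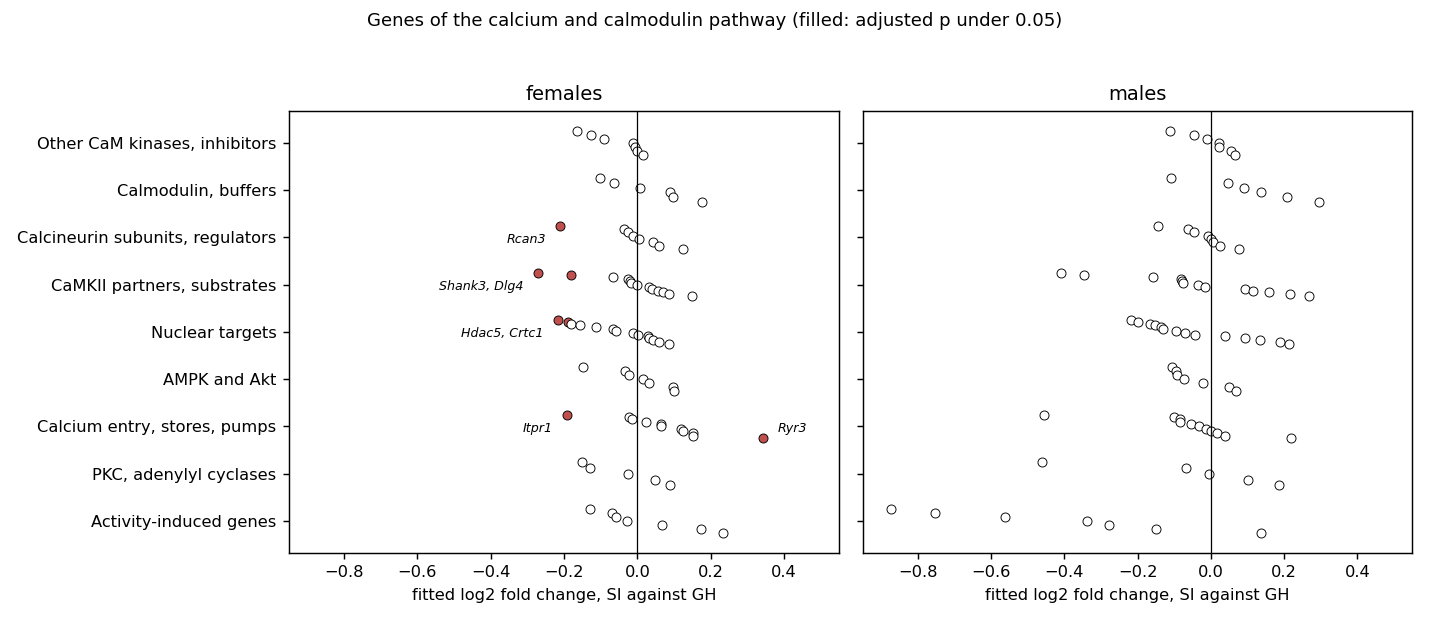
Fitted log2 fold change of SI against GH mice (x axis) for 78 genes in 9 lists (y axis), females left and males right; each point is 1 gene and filled points have an adjusted p under 0.05. The 7 named genes in females are the filled points, 6 of them below 0, and no point is filled in males.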

How the data were processed

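Total RNA of frozen hippocampus was selected for polyadenylated RNA and sequenced. The authors deposited 1 table of raw counts per gene and mouse, as whole numbers. The submitters' processing notes name Trimmomatic 0.39, Salmon 1.8.0, DESeq2 1.24.0 and the build GRCm39 (mm39); the annotation and the step from Salmon to whole counts are not given in the sources used here. No gene totalled under 100 counts.

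The 9 genes and the gene lists were chosen with earlier results of these data known. Counts were tested in R 4.3.3 with edgeR 4.0.16 (TMM, filterByExpr with minimum count 10 and total 15, quasi-likelihood test), Benjamini-Hochberg adjustment over all genes tested and a threshold of 0.05. Surrogate variables came from svaseq (sva 3.50.0), with their number by 20 permutations (seed 1): 3 in females, 2 in males and 4 with all mice. Standard errors given with edgeR fold changes are the absolute log2 fold change divided by the square root of the test's F statistic. Named beside the 9 genes were each list's called genes and its smallest p per sex. Gene names matched for 16439 of 17477 genes and transcript lengths for 15964. CPM used TMM over all 30 mice. Alternatives were DESeq2 1.42.0 (genes whose fit did not converge or passed 10 on the log2 scale left out), limma-voom (limma 3.58.1), other normalization, filters and surrogate variables, the position digit of the labels, removal of length and GC trends (lowess span 0.3), and leaving out mice. Scripts were tested on simulated data.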

Additional observations from a re-analysis of the deposited data

Results flagged for a closer look

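Over the 9 genes and the Camk2b to Camk2a ratio in the 4 groups, 40 sets of mice were examined for a single mouse far from the others, a rule by which chance flags about 1 in 20 sets. It flagged 2 sets, both in GH females and both through animal 78. This mouse had the highest Camk2g of its group, at 184 CPM where the other 6 held 168 to 175, and the lowest Camkk1, at 130 CPM where the others held 149 to 159.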

How the results depend on the processing

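Camk2a in females kept its negative sign under every alternative run. It stayed called with DESeq2, DESeq2's size factors, no filter, 1 surrogate variable, limma-voom (which had no surrogate variables but weighted libraries by quality) and the length and GC trend removed, but not without surrogate variables, with the position digit as a factor in their place (-0.31, adjusted p 0.147) or with all groups in 1 fit (-0.25, adjusted p 0.070). Of the 9 genes, DESeq2 called 2 in females and removal of the trend 3, adding Camkk1 and Ppp3ca, while the fits without surrogate variables, with the position digit and with all groups called 0. Genes called in females were 1262 with DESeq2, 0 without surrogate variables, 0 with the position digit in their place (so that the digit's own part cannot be told apart) and 1511 with the trend removed; in males 44 with DESeq2 and 1 without SI males 25, 33 and 39; for sex by housing 6 with DESeq2, 0 without surrogate variables, 2 with the trend removed and 0 without those males. Leaving out 1 mouse gave 88 to 1428 genes and 0 to 2 of the 9 in females (lowest without SI 68, highest without GH 78), and 0 to 2413 genes and 0 to 3 of the 9 in males (highest without SI 27, when Camk2a, Camk4 at -0.36 and Ppp3ca at 0.38 were called). The ratio in males without SI males 25, 33 and 39 was 0.333. Of the 7 pathway genes called in females, 0 were called with the position digit and 1, Ryr3, with all groups in 1 fit; Ryr3 was the 1 lost with 1 surrogate variable (adjusted p 0.0817) and with limma-voom (0.100).

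Signs turned only where the fitted value was not called. In females these were Camk4 with 1 surrogate variable (-0.018) and limma-voom (-0.066), Camkk2 with limma-voom (-0.012), and Camk1d with the position digit (0.013), the trend removed (0.0046) and all groups (0.0015). In males they were Camkk1 without surrogate variables (-0.13), with 1 (-0.0070), limma-voom (-0.035), the position digit (-0.16) and without the 3 males (-0.076); Camk2n1 without surrogate variables (0.36), with limma-voom (0.040) and the position digit (0.32); Camk2b with the position digit (-0.018); Camk1d with the trend removed (0.055), all groups (0.057) and without the 3 males (0.0090); Camk2g without the 3 males (-0.039) and with all groups (-0.013); Prkaa2 with the trend removed (0.068); and Rcan3 without the 3 males (0.0042). For sex by housing they were Camk2a (-0.11), Camk2b (-0.088) and Camk1d (-0.24) without surrogate variables, and Ppp3ca with the trend removed (-0.0098) and without the 3 males (-0.061). With 1 mouse left out, signs turned for Camk2d (-0.065 to 0.077), Camk4 (-0.017 to 0.042), Camkk2 (-0.0082 to 0.043) and Camk1d (-0.050 to 0.020) in females, and Camk2g (-0.0033 to 0.094), Camkk1 (-0.072 to 0.048), Camk1d (-0.19 to 0.021) and Camk2n1 (-0.21 to 0.031) in males. The causes were not tested.

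Removing the length and GC trend left the ratio difference at 0.387 in females and 0.389 in males, and permuting housing within position digits gave 0.438 and 0.339 (exact permutation p = 0.0129, 0.0163, 0.0056 and 0.0444); both alternatives were chosen after seeing the data. No GH female carries digit 3 and no SI male digit 4. No paired analysis was possible because animal numbers are unique to each mouse. Depth did not limit the detection of any of the 9 genes.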
